A study of Mus musculus with 9 samples.

Results

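The miR-15/16 family is a group of small RNAs that share one seed, the bases by which a microRNA (miRNA) pairs with its targets. Its 6 members here are mmu-miR-15a, mmu-miR-15b, mmu-miR-16, mmu-miR-195a, mmu-miR-322 and mmu-miR-497a, taken by name from the 1164 miRNAs of the deposited count table. The rule for membership uses names and no measured level. 4 of the 6 members had enough counts to be tested, and miR-195a and miR-497a did not.

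Small RNA was sequenced from small extracellular vesicle (smEV) pellets, which were collected by differential centrifugation from the medium of kidney medullary (KM) cell lines. These immortalised mouse lines were wild-type (WT), Bbs4 -/- or Bbs6 -/-, and all 3 were kept without serum for 24 h before the medium was taken. Bbs4 is a subunit of the BBSome, a coat that moves cargo in the primary cilium, and Bbs6 belongs to the chaperonin-like complex that helps to assemble it. The cells of each genotype came from 1 line, so genotype and line cannot be told apart, and the 3 libraries of a genotype are separate smEV pellets, so p-values measure the spread between pellets.

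miR-15 and miR-16 genes sit side by side in the genome and are transcribed as pairs, and mammals carry several such pairs. Members of the family repress cyclins and other drivers of the step from G1 into DNA synthesis, and also Bcl2, an inhibitor of cell death. Loss of the pair in the Dleu2 gene is best known from chronic lymphocytic leukaemia, while miR-322, the mouse counterpart of human miR-424, is known for its rise when muscle precursors leave the cell cycle.

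The mature sequences show why these miRNAs are treated as a family. Each is given 5′ to 3′ from RefSeq (GRCm38.p6), with the seed, bases 2 to 8, in capitals. All 6 members were matched by name. Only the 5p arm is shown, since it carries the family seed.
miR-15a-5p: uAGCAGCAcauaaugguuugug
miR-15b-5p: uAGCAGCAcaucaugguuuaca
miR-16-5p: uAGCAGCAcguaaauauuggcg
miR-195a-5p: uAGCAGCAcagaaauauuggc
miR-322-5p: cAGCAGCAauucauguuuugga
miR-497a-5p: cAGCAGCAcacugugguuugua

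The 6 members had the same seed and differed mainly in the 3′ part. miR-15a and miR-15b had 18 of 22 bases in common when aligned from the 5′ end, and miR-16 and miR-195a had 19 of 21, so 2 bases separated the closest pair of the family. miR-322 and miR-16 had 12 of 22 in common. The seed AGCAGCA was found in 10 of the 1679 mature mouse miRNA names of the RefSeq table (0.596%). The 4 names outside the family, miR-195b, miR-6342, miR-6353 and miR-6419, had no count in any of the 9 libraries.

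The members come from 4 places in the genome (GRCm38, genes from GENCODE vM21). Mature miR-15a lies at chr14:61632075-61632096 on the minus strand, in an intron of the non-coding gene Dleu2. Its partner gene Mir16-1 begins 54 bp away and overlaps an exon of Dleu2. Mature miR-15b lies at chr3:69009775-69009796 on the plus strand, in an intron of Smc4, a condensin subunit gene, with Mir16-2 at a distance of 66 bp, also in an intron of Smc4. Mature miR-16 is the same from both genes, at chr14:61631936-61631957 and chr3:69009918-69009939. The miR-195a and miR-497a genes stand 241 bp apart, with the mature sequences at chr11:70235062-70235082 and chr11:70234730-70234751. Mature miR-322 lies at chrX:53054306-53054327, and neither the chromosome 11 pair nor miR-322 had an annotated host gene.

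The names in the table carry no arm, so reads of the 5p and the 3p strand could not be told apart for the members other than miR-16. The 3p strands of miR-16 appear to have entries of their own. For a miRNA with several entries the authors kept the largest count. The miR-16 value therefore does not say which of its 2 loci the RNA came from. The locus-numbered entries bear the names of the passenger strands, miR-16-1-3p and miR-16-2-3p, without the arm. The entry miR-16-1 had no count, and miR-16-2 had 13 counts over the 9 libraries, with at most 4 in one of them.

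Sequencing depth, as the total of miRNA counts, ran from 64118 to 130905 in WT, from 176935 to 457163 in Bbs4 -/- and from 192654 to 423784 in Bbs6 -/-, and no WT library reached the depth of a mutant one. Levels are given as CPM, counts relative to library size, after scaling with the trimmed mean of M-values (TMM) method of edgeR. A count of 0 leaves room for up to 3 counts, which stood for 6.99 to 36.5 CPM. Pairs of libraries of one genotype were not copies of each other (chi-square 12.4 to 110 times its degrees of freedom) and were kept as separate replicates. They carry the numbers of the count table, where WT has 1, 3 and 4, Bbs6 -/- has 2, 3 and 4, and Bbs4 -/- has 1, 2 and 3, and values are given in the order of these numbers. Kidney tubule miRNAs (miR-192, miR-194 and miR-30a) summed to 44421 to 47339 CPM in Bbs4 -/-. This was above the 26164 to 32794 CPM of WT and the 26479 to 34502 CPM of Bbs6 -/-. Nearly all of the sum was miR-30a, with 37312 counts in Bbs4 -/- beside 72 for miR-192 and 108 for miR-194. In Bbs4 -/- relative to Bbs6 -/-, the log2 fold change was 0.65 for miR-30a, but −0.42 for miR-192 and −0.34 for miR-194. Relative to WT it was 0.57 for miR-30a (edgeR adjusted p = 0.0578), 0.80 for miR-194 (edgeR adjusted p = 0.483) and 0.006 for miR-192. The 5 epithelial miRNAs of the miR-200 group summed to 9990 to 13303 CPM in WT and 16551 to 21413 CPM in the mutants, without overlap. Of these 5, miR-200a, miR-200b and miR-429 had counts in every library, while miR-200c had 4 counts over the WT libraries against 2686 in Bbs4 -/- and 2643 in Bbs6 -/-, and miR-141 had 0 in WT against 88 and 120. Of 4 mesenchymal miRNAs, miR-145a and miR-214 were at 0 throughout, and the list summed to 80.1 to 162 CPM in WT, 123 to 273 CPM in Bbs4 -/- and at most 71.8 CPM in Bbs6 -/-, the last without overlap with WT. The blood miRNAs miR-451a, miR-486a, miR-144 and miR-142a summed to 84.0 to 170 CPM in WT and 60.5 to 114 CPM in Bbs4 -/-. In Bbs6 -/- they summed to 34.2 to 71.3 CPM, without overlap with WT. The mesenchymal and blood sums rest on few counts. Over the Bbs6 -/- and WT libraries miR-143 had 33 and 39 counts, miR-486a 31 and 23, and miR-451a 3 and 17. The liver miRNA miR-122, with at most 22 counts in a library, was at 26.7 to 85.1 CPM in WT. It was at 0 to 8.96 CPM in Bbs4 -/-, without overlap with WT, and at 0 to 75.2 CPM in Bbs6 -/-.

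miR-16 was the leading member of the family in every smEV pellet. It had 259, 402 and 767 counts in the WT libraries, or 3148, 3579 and 4959 CPM. In Bbs4 -/- the level was 3268, 2808 and 3192 CPM, and in Bbs6 -/- it was 3600, 2697 and 2897 CPM. All 6 mutant values lay inside or below the WT range, and both mutants overlapped WT. miR-16 ranked between 37th and 50th of all miRNAs in the 9 libraries.

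miR-15b, made from the Smc4 locus, was the second most abundant member. Its level was 1203, 2226 and 1687 CPM in WT, 1094, 1415 and 1551 CPM in Bbs4 -/-, and 1575, 1265 and 1489 CPM in Bbs6 -/-. WT had both the highest value and one of the lowest, so its spread covered most of the mutant values. The coefficient of variation of miR-15b in WT was 30.0%, against 7.01% from counting alone.

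miR-322, the X-linked member, was far scarcer. WT libraries had 182, 267 and 265 CPM, from 15, 30 and 41 counts. Bbs4 -/- libraries had 94.8, 179 and 81.5 CPM, from 15, 40 and 35 counts, and every one of them lay below the lowest WT library, the second by a narrow margin. Bbs6 -/- libraries had 187, 198 and 140 CPM, from 34, 58 and 49 counts, and overlapped the WT range.

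miR-15a, the Dleu2 member, was the scarcest of the 4 and the only one with higher values in the mutants. It had 4, 5 and 2 counts in WT, or 48.6, 44.5 and 12.9 CPM. In Bbs4 -/- there were 13, 18 and 33 counts, or 82.2, 80.6 and 76.8 CPM. In Bbs6 -/- there were 20, 19 and 37 counts, or 110, 64.9 and 106 CPM. Both mutants lay above WT without overlap, although the WT values rest on 11 counts in all.

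**Figure D1:**
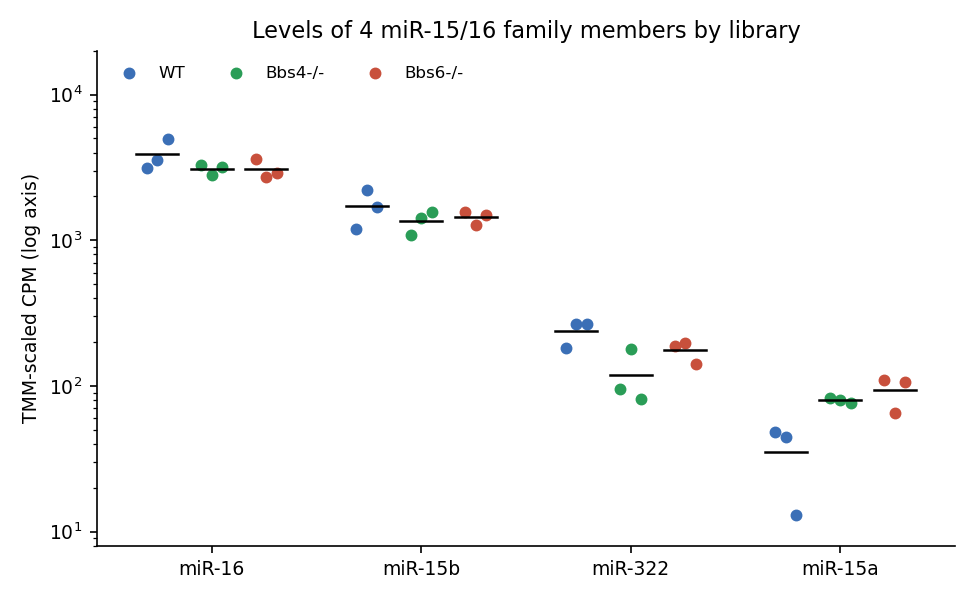
Level of miR-16, miR-15b, miR-322 and miR-15a in each library, in TMM-scaled CPM on a log axis. Each point is 1 of 3 smEV libraries of WT (blue), Bbs4 -/- (green) or Bbs6 -/- (red), and the bar is the group mean. miR-16 spans 2697 to 4959 CPM and miR-15a spans 12.9 to 110 CPM, with its 3 WT points below all mutant points.

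miR-195a and miR-497a, the pair on chromosome 11, were at or under the counting floor. miR-195a had 3 counts, all in Bbs6 -/- library 4, and miR-497a had 2 counts, both in Bbs4 -/- library 3. Since miR-195a differs from miR-16 by 2 bases, the few counts assigned to it are uncertain, and they were not read as expression. The floor of 3 counts stood for 0.219% to 1.16% of the miR-16 count of the same library, so either miRNA was not detectable above about that share.

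The order of the 4 measured members was the same in every library, with miR-16 above miR-15b, miR-15b above miR-322 and miR-322 above miR-15a. The members are 21 or 22 bases long, so counts were set side by side without a correction for length. In Bbs4 -/- the last 2 of that order did not differ beyond their spread, with 118 ± 53.0 CPM for miR-322 and 79.9 ± 2.75 CPM for miR-15a (mean ± SD, n = 3), and their ranges overlapped. The coefficient of variation of miR-15a there, 3.44%, was below the 21.7% from counting alone, so its SD understates the error. In WT, with 238 ± 48.4 and 35.4 ± 19.5 CPM, and in Bbs6 -/-, with 175 ± 30.7 and 93.5 ± 24.8 CPM (n = 3 each), their ranges did not overlap.

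The family as a whole took 0.588%, 0.647% and 0.818% of the miRNA counts in WT, and between 0.383% and 0.518% in the 6 mutant libraries. As a share of raw counts, WT thus lay above every mutant library. After TMM scaling the summed level was 5874 ± 1190 CPM in WT, 4643 ± 230 CPM in Bbs4 -/- and 4779 ± 635 CPM in Bbs6 -/- (mean ± SD, n = 3), and WT library 1, at 4582 CPM, fell among the mutant values. Whether the groups separated therefore depended on the scaling. Both measures are relative to the other miRNAs, so less of the family and more of other miRNAs cannot be told apart. Nor can fewer vesicles carrying the family and fewer copies per vesicle, in bulk vesicle RNA.

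The shares of miR-16, miR-15b and miR-322 in that sum overlapped between the 3 lines, while that of miR-15a was lower in each WT library than in any mutant library. miR-16 made 58.5% to 72.0% of the family counts over the 9 libraries, miR-15b made 24.1% to 36.4% and miR-322 made 1.66% to 4.69%. miR-15a made 1.54% to 2.28% in the mutants and 0.187% to 1.06% in WT.

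The quasi-likelihood test of edgeR was run for each mutant with the WT libraries, across all miRNAs with 6 or more counts over these 6 libraries, to ask whether the loss of a Bbs gene went with another level of the family in smEVs. A call needed an adjusted p under 0.1, with Benjamini-Hochberg adjustment over all tested miRNAs, and the stricter call of the study added a log2 fold change of 2 or more, up or down. The comparisons share the 3 WT libraries, so their results are not independent.

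In Bbs4 -/- against WT, 0 of the 4 tested members passed at any fold, where 15.3% of all 308 tested miRNAs did, and 0 passed the stricter call, where 6.17% of all did. DESeq2 also called 0 of them. At an unadjusted p under 0.05 there was 1 member, miR-322, among 80 miRNAs. The levels of 2 of the 4, miR-15a and miR-322, did not overlap between the groups, where 31.8% of all miRNAs did not overlap. The median log2 fold change of the 4 members was −0.45, beside −0.02 for all tested miRNAs.

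Of the members, miR-322 was the one nearest to a call. Its log2 fold change in Bbs4 -/- was −1.13 (SE 0.45, 95% interval −2.08 to −0.17), a 2.18-fold lower mean level, with an edgeR adjusted p of 0.130. Bbs4 -/- library 2 stood apart from the other two at 179 CPM. Without it the change was −1.55 with an edgeR adjusted p of 0.0795, which passed. With robust estimation of the spread it was −1.13 with an adjusted p of 0.0980, which passed as well. It did not pass without Bbs4 -/- library 1 (edgeR adjusted p = 0.303) or 3 (0.320), or without any WT library. Nor did it pass with DESeq2 (adjusted p = 0.210) or with a replicate block in edgeR (0.166). Over the 14 alternatives the adjusted p ran from 0.0795 to 0.320.

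miR-16 and miR-15b had small and similar estimates. For miR-16 the log2 fold change was −0.45 (SE 0.23, 95% interval −0.95 to 0.04, edgeR adjusted p = 0.240), and for miR-15b it was −0.44 (SE 0.27, interval −1.02 to 0.13, adjusted p = 0.328). A fall of miR-16 to 0.518 of the WT level or a rise to 1.03 times that level stayed within the interval. Scaling by total counts in place of TMM moved the median of all tested miRNAs by −0.18 on the log2 scale. Under that scaling miR-16 was at −0.63 (adjusted p = 0.0690) and miR-322 at −1.26 (adjusted p = 0.0985), and both passed. Relative to the median of all miRNAs, miR-16 was at −0.44 with TMM and −0.43 with total counts.

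miR-15a had the opposite sign in Bbs4 -/-. Its log2 fold change was 1.13 (SE 0.67, 95% interval −0.31 to 2.57), or 2.19-fold, with an edgeR adjusted p of 0.325. Despite the lack of overlap, the few WT counts left an interval that ran from 0.805-fold to 5.95-fold.

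In Bbs6 -/- against WT, 0 of the 4 members passed at any fold, where 15.1% of all 298 tested miRNAs did, and 0 passed the stricter call, where 4.03% did. DESeq2 called 0, and 0 members had an unadjusted p under 0.05 in edgeR, beside 66 of all miRNAs. The groups did not overlap for 1 member, miR-15a, where 29.2% of all miRNAs did not overlap. The median of the 4 members was −0.27, beside −0.01 for all tested miRNAs.

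The signs in Bbs6 -/- were those seen in Bbs4 -/-, which was compared with the same WT libraries. miR-15a was at 1.47 (SE 0.67, 95% interval −0.03 to 2.97, edgeR adjusted p = 0.228), or 2.76-fold. miR-322 was at −0.42 (SE 0.38, interval −1.28 to 0.44, adjusted p = 0.591). miR-16 was at −0.34 (interval −0.86 to 0.19) and miR-15b at −0.21 (interval −0.74 to 0.33), with edgeR adjusted p-values of 0.458 and 0.671. A 2-fold change of either miR-16 or miR-15b lay outside these intervals, while one of miR-322 or miR-15a lay inside.

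The mutants were set against each other in a fit of all 9 libraries, to ask whether the lines differ beyond what they share against WT. None of the 4 members passed at any fold, where 8.09% of all 309 tested miRNAs did, or by the stricter call, where 3.88% did, and 0 had an unadjusted p under 0.05, beside 50 of all. DESeq2 also gave 0. No member separated the mutants without overlap, where 22.0% of all miRNAs did. miR-322 had the lowest estimate, −0.56 in Bbs4 -/- relative to Bbs6 -/- (SE 0.43, 95% interval −1.48 to 0.35, edgeR adjusted p = 0.586). miR-16 was at 0.01 (interval −0.46 to 0.49) and miR-15b at −0.09 (interval −0.64 to 0.46), with signs that changed between alternative settings, and miR-15a was at −0.22 (interval −1.40 to 0.95).

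Ratios of members within a library do not depend on how libraries are scaled. miR-15a was compared with miR-15b, because these close relatives come from different loci. miR-15a made 3.88%, 1.96% and 0.760% of their joint counts in WT, with exact Clopper-Pearson 95% intervals of 1.07% to 9.65%, 0.640% to 4.52% and 0.0922% to 2.72%. It made 6.99%, 5.39% and 4.72% in Bbs4 -/-, and 6.51%, 4.88% and 6.64% in Bbs6 -/-. All mutant shares lay above all WT shares, though the interval of WT library 1 took in every mutant share. The intervals cover counting error only.

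**Figure D2:**
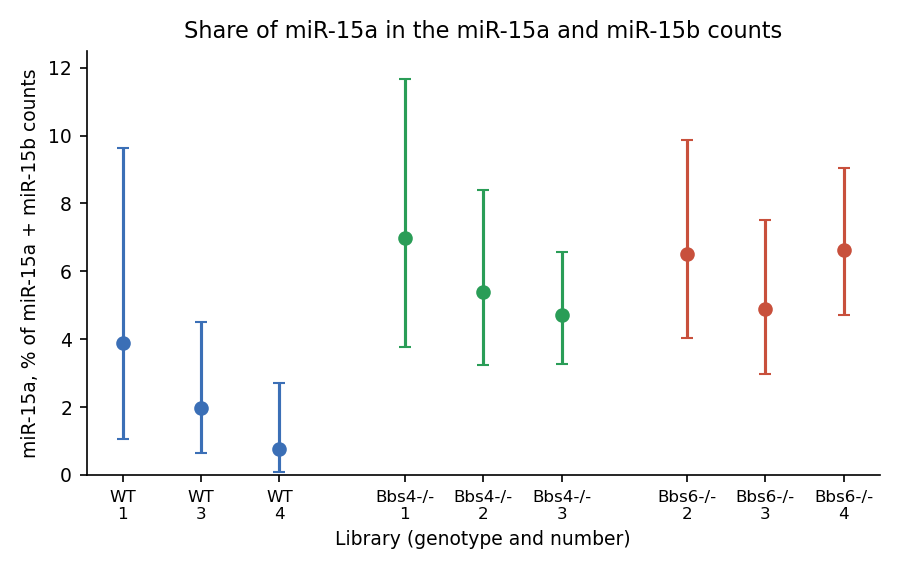
Share of miR-15a in the joint counts of miR-15a and miR-15b, in percent, for each of the 9 libraries. Points are the shares and bars their exact 95% binomial intervals. WT shares run from 0.760% to 3.88% and mutant shares from 4.72% to 6.99%, with wide intervals in the shallow WT libraries.

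On the log2 scale, with 0.5 added to each count, the ratio of miR-15a to miR-15b was −5.56 ± 1.12 in WT, −4.03 ± 0.32 in Bbs4 -/- and −3.95 ± 0.26 in Bbs6 -/- (mean ± SD, n = 3). An exact permutation test of the 3 groups, one-sided by construction, gave p = 0.0321, and p = 0.0964 after Benjamini-Hochberg adjustment over the 3 ratios tested. This missed 0.05, though it was under the 0.1 used for the edgeR calls. Without Bbs6 -/- library 2 the adjusted exact permutation p was 0.214. The smallest p this test can give is 0.00357. The difference from WT was 1.53 for Bbs4 -/- and 1.61 for Bbs6 -/-, or 2.89-fold and 3.05-fold. For each pair the two-sided exact permutation p was 0.1, the smallest that 3 against 3 libraries allow, and 0.45 after adjustment over 9 pairs. Between WT and the mutants, lower depth went with a lower ratio, since the WT libraries were the shallowest. The lower epithelial sum of WT, with its near lack of miR-200c and miR-141, did so too. Within WT the ratio fell as depth rose, from −4.47 in library 1 (total 64118) to −6.71 in library 4 (total 130905). In Bbs4 -/- it fell from −3.68 in library 1 (total 176935) to −4.31 in library 3 (total 457163), while Bbs6 -/- had no such order. The tubule sum, nearly all miR-30a, and the liver miRNA miR-122 set Bbs4 -/- apart from WT. The mesenchymal and blood sums, both resting on few counts, set Bbs6 -/- apart from WT. The part of any of these in the results of the family was not tested.

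For the other ratios the lines overlapped and the test was not passed. miR-16 relative to the sum of miR-15a and miR-15b, which tracks the mature miRNA of both pairs against their partners, was 1.17 ± 0.46 in WT, 1.12 ± 0.31 in Bbs4 -/- and 0.99 ± 0.12 in Bbs6 -/- on the log2 scale (n = 3, exact permutation p = 0.746). miR-322 relative to miR-16 was −4.00 ± 0.25 in WT, −4.76 ± 0.71 in Bbs4 -/- and −4.12 ± 0.32 in Bbs6 -/- (n = 3, exact permutation p = 0.182, adjusted p = 0.273). Bbs4 -/- library 2, at −3.95, lay inside the WT range, and libraries 1 and 3, at −5.06 and −5.27, lay below it. Without library 2 the exact permutation p of this ratio was 0.0179, and 0.0536 after adjustment.

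miR-322 shares its place on the X chromosome with miR-503, miR-351, miR-542, miR-450a and miR-450b, whose 7 genes including Mir322 span 6353 bp on the minus strand. These neighbours bear on miR-322 because clustered miRNAs are commonly cut from one transcript. miR-503 is often counted with the wider family, since its first 7 bases are those of miR-16, while miR-351 has a seed of another family, that of miR-125. Their mature sequences are shown for that contrast, with the seed in capitals.
miR-503-5p: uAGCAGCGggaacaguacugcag
miR-351-5p: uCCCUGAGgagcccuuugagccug

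miR-351 was the one neighbour that passed the test. Its level was 389, 570 and 537 CPM in WT, 253, 219 and 298 CPM in Bbs4 -/-, and 241, 212 and 243 CPM in Bbs6 -/-. All mutant libraries lay below all WT libraries. It fell by 1.07 on the log2 scale in Bbs4 -/- (SE 0.33, edgeR adjusted p = 0.0489) and by 1.07 in Bbs6 -/- (SE 0.31, edgeR adjusted p = 0.0614), in each case 2.10 to 2.11 times lower than WT. It was below WT in each of the 14 alternatives of either comparison, and 9 of 14 kept the call in each. The call in Bbs4 -/- was lost without Bbs4 -/- library 1 (adjusted p = 0.159) or 2 (0.179), without WT library 3 (0.130) or 4 (0.118), and with a replicate block (0.239). The call in Bbs6 -/- was lost without Bbs6 -/- library 3 (0.240) or 4 (0.186), and without WT library 1 (0.120), 3 (0.169) or 4 (0.170).

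In Bbs4 -/- against WT, 1 of the 5 neighbours passed at any fold (15.3% of all miRNAs), 0 by the stricter rule (6.17% of all), and 3 did not overlap (31.8% of all). In Bbs6 -/- against WT the counts were 1, 0 and 2, beside 15.1%, 4.03% and 29.2% of all miRNAs. Between the mutants they were 0, 0 and 1, beside 8.09%, 3.88% and 22.0%. A share of 1 in 5 called is near that of all miRNAs. The median log2 fold change of the 5 neighbours was −1.43 in Bbs4 -/- and −1.06 in Bbs6 -/- against WT.

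miR-503, the next gene to miR-322 at 200 bp, did not follow its lower estimate. Its level was 97.2, 89.0 and 103 CPM in WT, 133, 85.1 and 95.5 CPM in Bbs4 -/-, and 143, 133 and 65.8 CPM in Bbs6 -/-. The log2 fold change was −0.02 in Bbs4 -/- (95% interval −1.04 to 1.01) and 0.24 in Bbs6 -/- (interval −0.89 to 1.38). The difference between miR-503 and miR-322 was not tested.

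miR-542, miR-450a and miR-450b rested on 1 to 24 counts a library. Their estimates in Bbs4 -/- were −2.19, −1.43 and −1.92, with edgeR adjusted p-values of 0.122, 0.191 and 0.183. The 95% intervals of all 3, −3.99 to −0.39, −2.84 to −0.01 and −3.73 to −0.11, lay below 0, and whether these neighbours differ from miR-351 was not tested. miR-542 passed in 3 of 13 alternatives in Bbs4 -/- (no filter, robust estimation, and without WT library 3), miR-450b in 1 of 14 (filterByExpr) and miR-450a in 0 of 14. miR-450b was at 60.8, 62.3 and 58.2 CPM in WT and at 6.32, 17.9 and 23.3 CPM in Bbs4 -/-, but the latter are 1, 4 and 10 counts. miR-450a had 60.8, 62.3 and 129 CPM in WT and 19.0, 31.4 and 48.9 CPM in Bbs4 -/-, again without overlap. In Bbs6 -/- the estimates were −1.34 for miR-542, −0.18 for miR-450a and −1.06 for miR-450b, with edgeR adjusted p-values of 0.334, 0.894 and 0.485.

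**Figure D3:**
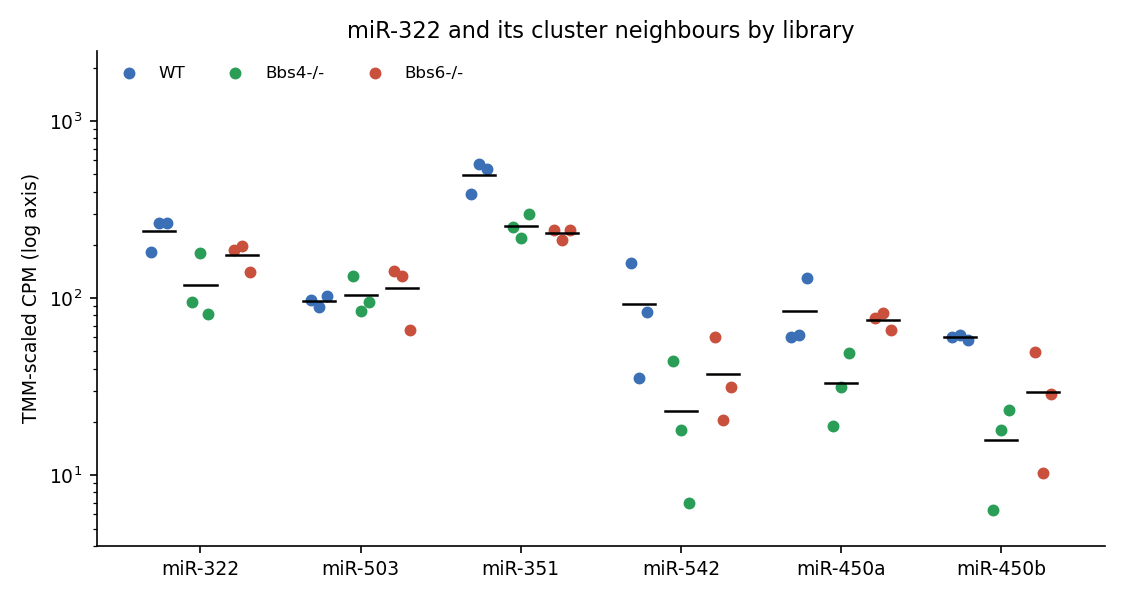
Level of miR-322 and its 5 X-linked neighbours in each library, in TMM-scaled CPM on a log axis. Points are the 3 libraries of WT (blue), Bbs4 -/- (green) and Bbs6 -/- (red), and bars are group means. miR-351 has its WT points, 389 to 570 CPM, above all mutant points, while the groups of miR-503 overlap.

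miR-103 and miR-107 have a seed related to that of the family, shifted by 1 base, and are best known for their place in introns of pantothenate kinase genes. Their mature sequences have 22 of 23 bases in common, so the split of reads between them is uncertain.
miR-103-3p: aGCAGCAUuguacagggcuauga
miR-107-3p: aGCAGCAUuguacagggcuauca

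miR-103 had 2103 to 2832 CPM in WT, below the 3148 to 4959 CPM of miR-16 there. It had 2920 to 4017 CPM in Bbs4 -/- and 2287 to 3913 CPM in Bbs6 -/-, and in both mutants its range overlapped that of miR-16. Its log2 fold change was 0.38 in Bbs4 -/- (95% interval −0.11 to 0.86) and 0.34 in Bbs6 -/- (interval −0.20 to 0.88). Neither passed, with edgeR adjusted p-values of 0.328 and 0.465.

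miR-107 had 12.2, 134 and 45.3 CPM in WT, from 1, 15 and 7 counts. It had 190, 206 and 244 CPM in Bbs4 -/- and 176, 167 and 266 CPM in Bbs6 -/-, so all mutant libraries lay above all WT libraries. The log2 fold change was 1.60 in Bbs4 -/- (SE 0.59, edgeR adjusted p = 0.109) and 1.72 in Bbs6 -/- (SE 0.65, adjusted p = 0.143), and neither passed. An adjusted p under 0.1 was reached in 9 of 14 alternatives for Bbs4 -/- and in 6 of 14 for Bbs6 -/-. With a replicate block both passed, at 2.02 (edgeR adjusted p = 0.0129) and 1.64 (adjusted p = 0.0475). WT library 3 held most of the WT counts, and without it the estimates were 2.63 (adjusted p = 0.0193) and 2.65 (adjusted p = 0.0629).

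**Figure D4:**
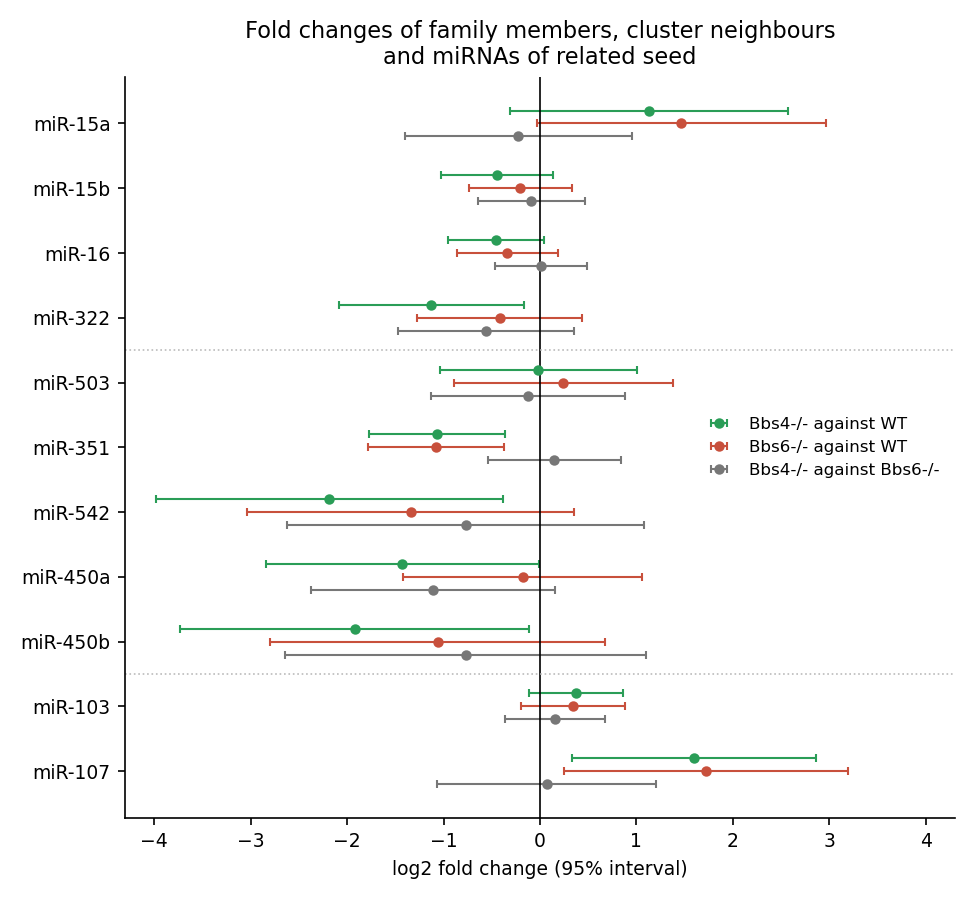
Log2 fold changes from edgeR with their 95% intervals for the 4 tested family members, the 5 X-linked neighbours and miR-103 and miR-107 (blocks from top to bottom). Green is Bbs4 -/- against WT, red is Bbs6 -/- against WT and grey is Bbs4 -/- against Bbs6 -/-. The intervals of miR-15b and miR-16 cross 0 in each comparison, and those of miR-351 lie below 0 against WT.

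Likeness over the 9 libraries was described by Pearson's r of log2 levels, among 110 miRNAs that had 10 counts or more in each of the libraries, a bar that miR-15a did not reach. The points share 3 lines and their depths, and no test was made. The miRNAs most like miR-16 were miR-342 (r = 0.819), miR-24 (r = 0.752) and miR-351 (r = 0.735). Those most like miR-15b were miR-374b and miR-374c (r = 0.798 each, with the same counts) and miR-23a (r = 0.768), and those most like miR-322 were miR-224 (r = 0.689), miR-6538 (r = 0.631) and miR-374c (r = 0.609). Among the members themselves r was 0.462 between miR-15b and miR-16, 0.504 between miR-15b and miR-322 and 0.395 between miR-16 and miR-322. The miRNAs above were picked as the highest of 110, so their r values are no measure of whether those among members are low.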

How the data were processed

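Libraries of 9 smEV RNA preparations were grouped by the genotype in the labels. The authors trimmed adapters with cutadapt 1.9, removed low-quality reads, collapsed reads by their molecular identifiers, removed short reads and counted miRNAs with miRDeep2, keeping the largest value where a miRNA had several entries. Deposited were raw counts per miRNA, not normalized. The submitters' processing notes name GRCm38, and the miRBase release is not given in the sources used here. The numbers of the table's columns differ from those of the labels in 2 of 3 groups, so columns were tied to a genotype and not to a labelled sample. The number of columns not used was 0.

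Counts were analysed with edgeR 4.0.16 in R 4.3.3 (TMM, quasi-likelihood test), with DESeq2 1.42.0 as an alternative. miRNAs entered with at least 6 counts over 6 libraries, or 9 over 9 for the contrast of the mutants. SEs are the size of a log2 fold change divided by the square root of F. Ratios were tested by exact permutation in python 3.11.15 on counts with 0.5 added. The exact intervals of shares came from scipy 1.17.1 on raw counts, and scripts were tested on simulated data. Named were the 6 members, the locus-numbered and same-seed entries, the X-linked neighbours, miR-103 and miR-107, and for each eligible member the 3 miRNAs most like it. Members and lists were chosen with earlier results of these data known. Sequences are from RefSeq and gene positions from GENCODE vM21. Plots were made in python 3.11.15 (matplotlib 3.10.9).

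Alternatives were DESeq2, its size factors in edgeR, total counts, no filter, filterByExpr, other libraries in the fit, robust estimation, stricter thresholds, a replicate block, a pseudocount of 1 and leaving out each library. Deviations from the group means correlated with r = 0.174 to 0.610 in the 6 same-numbered pairs of libraries and with r = −0.588 to 0.425 in the 21 others. Every same-numbered pair was over 0.1, the bar for taking the numbers as pairs. Some of the others passed it too, such as Bbs4 -/- library 1 with Bbs6 -/- library 2 (r = 0.410). The correlations therefore do not settle whether the numbers pair the libraries. The main fits and the ratio tests left the numbers out, and the replicate block was an alternative only. A pairing would rest on the correlations alone, since neither the labels nor the methods tie a number to a day or batch.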

Additional observations from a re-analysis of the deposited data

How the results depend on the processing

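Of 168 alternative fold changes of members, 153 kept their direction and their side of the threshold, 11 changed sign and 4 passed a threshold they had missed. All 4 that passed were in Bbs4 -/- against WT, where the number of called members was 0, but 2 with total counts, 1 with robust estimation and 0 to 1 when each library was left out. There miR-16 was at −0.63 with total counts, and miR-322 at −1.26 with total counts, at −1.13 with robust estimation and at −1.55 to −0.87 when each library was left out. All 11 changes of sign were in Bbs4 -/- against Bbs6 -/-, for estimates close to 0. miR-15b turned to 0.021 with total counts and to 0.057 with the replicate block, and ranged from −0.31 to 0.040 over left-out libraries. miR-16 turned to −0.029 with DESeq2, −0.044 with DESeq2 size factors, −0.11 with no filter and −0.14 in a fit of 6 libraries, and ranged from −0.21 to 0.076 over left-out libraries. The cause of these shifts was not tested. The replicate block changed no call of a member. Among the other miRNAs compared it ended the call of miR-351 in Bbs4 -/- and made those of miR-107 in both mutants, and it changed no other call. The summed level without miR-16 was 1553 CPM in Bbs4 -/-, 1714 CPM in Bbs6 -/- and 1979 CPM in WT. For miR-15a over miR-15b the adjusted exact permutation p ranged from 0.0964 to 0.214 over the alternatives, never under 0.05. It ranged from 0.0536, without Bbs4 -/- library 2, to 0.723 for miR-322 over miR-16 and from 0.257 to 0.936 for miR-16 over miR-15a plus miR-15b. The planned ratios of miR-195a plus miR-497a to miR-16 and of miR-16-1 to miR-16-2 were not run, since their numerators were at or under 3 counts in every library. Among the 4 tested members depth limits miR-15a most, with 2 to 5 counts in each WT library.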
